A study of Mus musculus with 26 samples.

Results

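The genes described here are Myc, Mycn, Mycl, Max, Mxd1, Mxd3, Mxd4, Mxi1, Mga and Mlx, a group of transcription factors that pair with the Max protein or with its relative Mlx. They were taken by name from a list of 10 genes, with no value of theirs in the rule. The list was chosen with earlier results of these data known. All 10 were measured among the 19505 named genes of the arrays. Each was read by 1 transcript cluster, the array's probe group for a gene, such as TC1500000453.mm.2 for Myc, TC1200001432.mm.2 for Mycn, TC0500002231.mm.2 for Mxd4 and TC0600002641.mm.2 for Mxd1.

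The study grew 13 neural stem and progenitor cell cultures from the telencephalon of C57BL/6 mice at postnatal day 0, tissue the labels also call fetal or embryonic, and measured 26 one-colour arrays. Cells of each animal were kept as a culture of their own in medium with EGF and FGF-1, and after passage 3 a portion was given 100 nM of the synthetic glucocorticoid dexamethasone (Dex) for 4 h and another the ethanol vehicle. The groups were SOX2 KO with Dex (7 arrays), SOX2 KO with vehicle (7 arrays), WT with Dex (6 arrays) and WT with vehicle (6 arrays). The labels describe neither the SOX2 KO allele nor how Sox2 was removed, and they give no sex for single arrays although animals of both sexes were used. In RNA from whole cultures, fewer cells of a type and less RNA per cell cannot be told apart.

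Myc, Mycn and Mycl are basic helix-loop-helix leucine zipper proteins that bind DNA only as dimers with Max, typically at the E-box CACGTG, and raise transcription of genes for growth, ribosome production and the cell cycle. The Mxd proteins, including Mxi1, and Mga compete for Max and recruit corepressors to the same sites, so the balance between Myc and Mxd partners is a known switch between proliferation and differentiation. Mlx is a parallel partner that works with the glucose-sensing Mondo proteins and with some Mxd proteins. In the developing brain Mycn is the family member best known for expanding neural progenitors. Glucocorticoids are known to lower c-Myc transcription in lymphoid cells, and Sox2 is a transcription factor that maintains neural stem cells.

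The promoters of Mycn, Mxd4 and Mxd1 are shown because these 3 genes passed the test in at least 1 of the comparisons below, with all cultures or without WT culture 4. Each is the RefSeq stretch of GRCm38.p6 from 250 bases before to 50 bases after the annotated start, read 5′ to 3′ on the gene's strand, and capitals mark the E-box. Mycn lies at chr12:12941787-12942086, Mxd4 at chr5:34187661-34187960 and Mxd1 at chr6:86669110-86669409, all on the minus strand.

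Mycn: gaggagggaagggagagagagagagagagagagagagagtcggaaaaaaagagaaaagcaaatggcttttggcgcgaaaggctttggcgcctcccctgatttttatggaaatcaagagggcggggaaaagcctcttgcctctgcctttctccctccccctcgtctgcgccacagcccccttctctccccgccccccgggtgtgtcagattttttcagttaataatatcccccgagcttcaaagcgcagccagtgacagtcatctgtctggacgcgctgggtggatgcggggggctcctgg

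Mxd4: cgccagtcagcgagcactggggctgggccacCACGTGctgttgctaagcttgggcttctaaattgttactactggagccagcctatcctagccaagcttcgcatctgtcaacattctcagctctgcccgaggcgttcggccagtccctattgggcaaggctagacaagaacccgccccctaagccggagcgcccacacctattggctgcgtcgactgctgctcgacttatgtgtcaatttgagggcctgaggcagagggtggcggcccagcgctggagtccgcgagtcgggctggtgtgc

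Mxd1: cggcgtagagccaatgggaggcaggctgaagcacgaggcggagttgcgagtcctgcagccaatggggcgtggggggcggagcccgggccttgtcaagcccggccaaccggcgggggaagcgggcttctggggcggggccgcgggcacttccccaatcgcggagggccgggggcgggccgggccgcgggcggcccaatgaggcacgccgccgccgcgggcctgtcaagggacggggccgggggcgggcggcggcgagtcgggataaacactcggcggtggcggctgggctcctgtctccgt

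RefSeq promoters were found for 9 of the 10 genes, 11 promoters in all, because Mxi1 has 3. The E-box CACGTG was searched on both strands and stood in 3 of the 11, those of Mxd4, Max and Mlx, against 7.15% of 32851 mouse promoters of the same length. In Mxd4 it began at position -219 from the start. The hexamer AGAACA, which is one arm of a glucocorticoid receptor site, stood in 0 of the 11 on either strand, against 19.0% of all promoters. The full palindromic site, in which AGAACA is followed after 3 bases of any kind by TGTTCT, stood in none of them, against 0.00913% of all promoters. The SOX core ACAATG stood in 1 of the 11, that of Mycl, against 12.6% of all promoters. These matches describe letters in short windows and say nothing about binding.

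Sox2 was at 4.79 ± 0.89 log2 units in SOX2 KO Dex arrays and 4.65 ± 0.51 in SOX2 KO vehicle arrays (SD, n = 7 each), against 12.96 ± 0.56 in WT Dex arrays and 13.40 ± 0.70 in WT vehicle arrays (SD, n = 6 each), with no overlap between the genotypes. The glucocorticoid-induced genes Fkbp5 and Per1 were higher in the array labelled Dex in all 7 SOX2 KO cultures and in 5 of the 6 WT cultures. In WT culture 4 they went against the labels, with Dex minus vehicle differences of -2.03 for Fkbp5 and -2.74 for Per1. Dex effects below that draw on WT are therefore given with and without that culture. Differences between SOX2 KO and WT, in Dex arrays and in vehicle arrays, draw on it too, and values without it are given for some genes. The Dex array of SOX2 KO culture 12 had the lowest upper quartile of all arrays, 9.38, where the others reached 10.43. Clustering of the profiles put the cultures in 3 array clusters, absent from the labels, and each cluster held both genotypes. By median percentile, all 10 measured neural stem and progenitor markers, such as Nes, Vim and Sox9, were above the array median in every group. On single arrays Prom1 reached down to the 36.9 percentile and Hes1 to the 49.2 percentile. All 5 endothelial and 6 of 7 or 7 of 7 microglial markers were below the array median by the same measure. In each group only 2 of 7 neuron and 1 of 6 astrocyte markers were below it.

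Myc, the broadly acting member of its family, had a bright signal in every group. Its level ran from 13.38 through a median of 14.25 to 14.67 log2 units in SOX2 KO Dex arrays and from 14.34 through 14.81 to 15.40 in SOX2 KO vehicle arrays. In WT it ran from 13.80 through 14.23 to 14.99 in Dex arrays and from 14.14 through 14.54 to 15.27 in vehicle arrays. All 4 groups overlapped, and the order by mean was SOX2 KO vehicle, WT vehicle, WT Dex and SOX2 KO Dex, with neighbouring means closer to each other than the SD of either group. On every array the Myc signal was at or above the 94.6 percentile of that array.

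Mycn had a dim signal. Its level ran from 3.34 through a median of 3.67 to 3.79 log2 units in SOX2 KO Dex arrays and from 3.79 through 3.91 to 4.26 in SOX2 KO vehicle arrays. In WT it ran from 3.23 through 3.72 to 4.74 in Dex arrays and from 4.08 through 4.56 to 5.77 in vehicle arrays. The 7 Dex and 7 vehicle arrays of SOX2 KO did not overlap beyond a shared end at 3.79, whereas the Dex and vehicle arrays of WT did. The order by mean was WT vehicle, SOX2 KO vehicle, WT Dex and SOX2 KO Dex, and only the step between WT vehicle (4.65 ± 0.61) and SOX2 KO vehicle (3.95 ± 0.17) was wider than both SDs. The Mycn signal was below the median of its own array on all 26 arrays, between the 0.9 and 36.3 percentiles, and the deposited table holds no detection calls. Mycl, the third Myc gene, lay between 5.06 and 6.01 in SOX2 KO Dex arrays and between 4.98 and 5.97 in SOX2 KO vehicle arrays. In WT it lay between 5.72 and 6.55 in Dex arrays and between 5.64 and 6.47 in vehicle arrays.

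Max, the shared partner, differed little between groups, with means of 11.87 ± 0.56 in SOX2 KO Dex, 12.02 ± 0.43 in SOX2 KO vehicle, 11.79 ± 0.38 in WT Dex and 11.85 ± 0.51 in WT vehicle arrays. Mlx was as even, at 11.82 ± 0.25, 11.82 ± 0.35, 11.63 ± 0.36 and 11.67 ± 0.36 in SOX2 KO Dex, SOX2 KO vehicle, WT Dex and WT vehicle arrays. Mga, a large protein that carries a T-box domain beside its Max-binding domain, was at 11.85 ± 1.13 in SOX2 KO Dex, 12.16 ± 0.59 in SOX2 KO vehicle, 12.24 ± 0.72 in WT Dex and 12.31 ± 0.62 in WT vehicle arrays. Its wide spread in SOX2 KO Dex came with a single low array, that of culture 12, at 9.44.

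Among the Mxd repressors, Mxd1 was the gene with the clearest step between genotypes. Its level ran from 8.03 through a median of 8.48 to 9.27 log2 units in SOX2 KO Dex arrays and from 8.40 through 8.90 to 9.68 in SOX2 KO vehicle arrays. In WT it ran from 6.84 through 8.02 to 8.77 in Dex arrays and from 6.72 through 7.76 to 8.78 in vehicle arrays. In the order by mean both SOX2 KO groups stood above both WT groups, and within each genotype the Dex and vehicle means were closer than their SD. Mxd4, which is known from post-mitotic and differentiating cells, ran from 10.98 through 11.32 to 11.95 in SOX2 KO Dex arrays and from 10.47 through 10.74 to 11.65 in SOX2 KO vehicle arrays. In WT Mxd4 ran from 10.48 through 11.14 to 11.71 in Dex arrays and from 10.20 through 10.96 to 11.13 in vehicle arrays, so within each genotype the Dex values sat higher but overlapped. Mxd3, a family member known from proliferating progenitors, was at 6.53 ± 0.26 in SOX2 KO Dex, 6.66 ± 0.57 in SOX2 KO vehicle, 7.00 ± 0.36 in WT Dex and 6.95 ± 0.41 in WT vehicle arrays. Mxi1 was at 10.04 ± 0.78 in SOX2 KO Dex, 10.33 ± 0.33 in SOX2 KO vehicle, 9.75 ± 0.72 in WT Dex and 9.72 ± 0.45 in WT vehicle arrays.

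**Figure D1:**
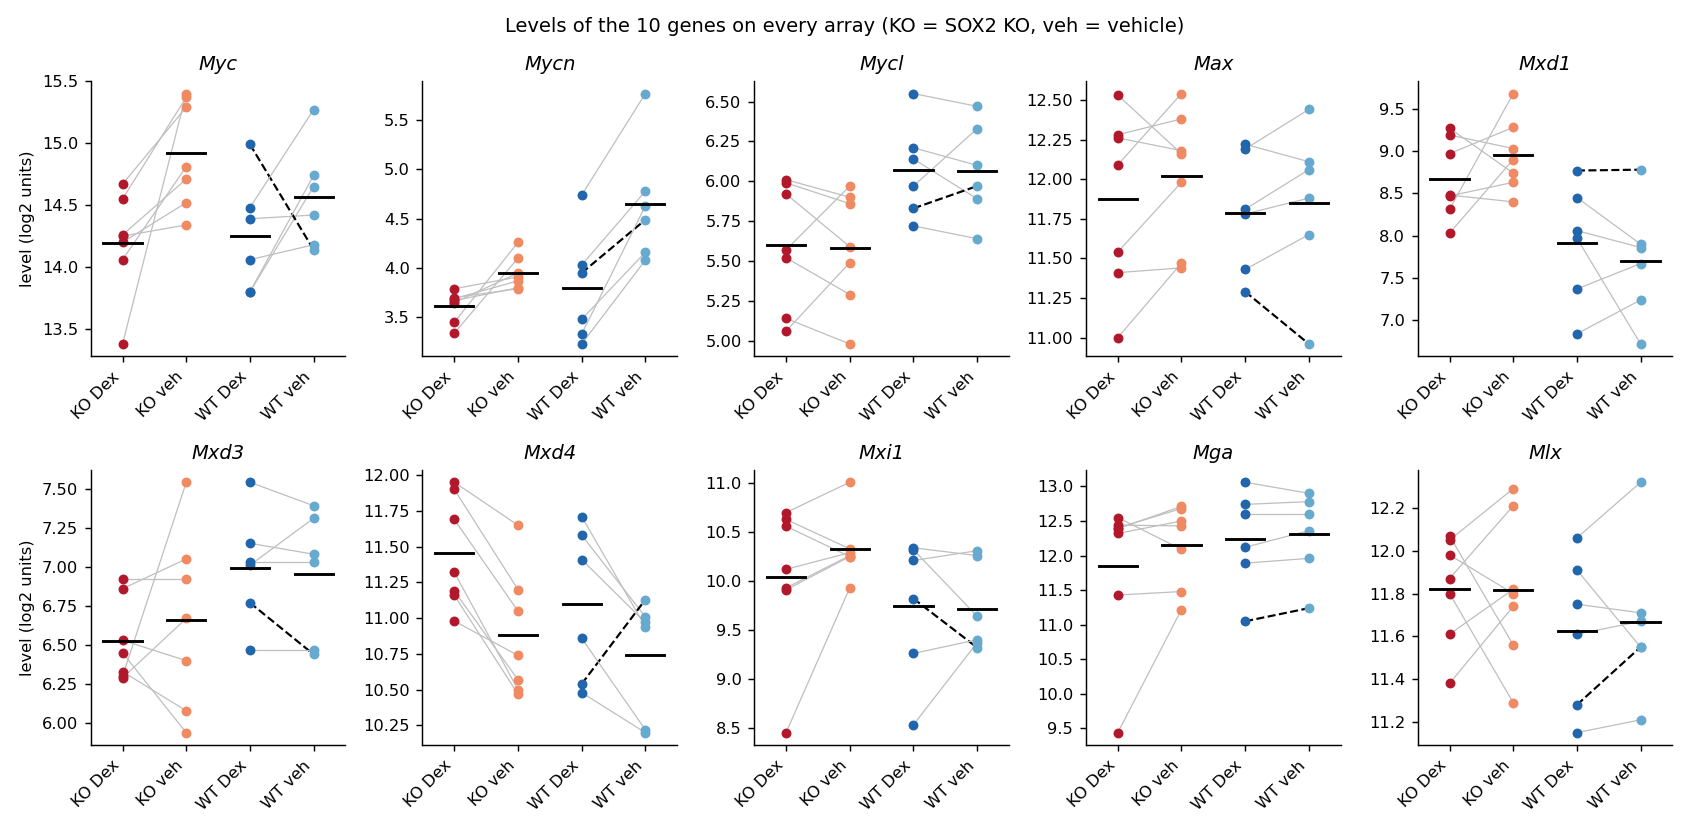
Level in log2 units (y axis, scaled for each gene) of the 10 genes on every array, by group (x axis). Points are arrays, lines join the Dex and vehicle arrays of a culture (dashed black, WT culture 4) and black bars are group means; Mycn sits lower in the array labelled Dex in all 13 cultures, WT culture 4 included, and 4 of the 7 SOX2 KO vehicle arrays of Mxd1 lie above all WT vehicle arrays.

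The first comparison asks how Dex changed these genes within each culture. Over the 12 cultures other than WT culture 4, Mycn and Myc were lower with Dex in 12 of 12 and Mxd4 was higher in 12 of 12. The share of all genes that moved in the same direction in all 12 was not counted. With culture 4 as labelled the tallies were 13 of 13 for Mycn and 12 of 13 for Myc and for Mxd4. With that pair turned round, as Fkbp5 and Per1 run in it, they were 12 of 13 for Mycn and 13 of 13 for Myc and for Mxd4, so culture 4 sets their order. With or without culture 4, the genes Mycl, Max, Mxd1, Mxd3, Mxi1, Mga and Mlx moved in both directions. Tested in each genotype alone with all cultures, 0 of the 10 genes passed an adjusted p of 0.05 in limma in either genotype. In SOX2 KO 3 of them (Myc, Mycn and Mxd4) had an unadjusted p at or under 0.05. In WT 2 did (Mycn and Mxd4). Over all genes 0.0718% passed in SOX2 KO and 0% in WT, and 10.2% and 3.87% had an unadjusted p at or under 0.05 in SOX2 KO and in WT.

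In SOX2 KO the Dex minus vehicle differences of Mycn were -0.09, -0.13, -0.18, -0.12, -0.76, -0.30 and -0.81 log2 units in cultures 7 to 13. In WT they were -0.68, -0.75, -1.03, -0.54, -0.85 and -1.30 in cultures 1 to 6. All were below 0 with culture 4 (-0.54) taken as labelled, and 5 of the 7 SOX2 KO differences were smaller in size than every WT difference. The Dex effect on Mycn was -0.34 ± 0.13 in SOX2 KO (SE, n = 7, adjusted p = 0.414 in limma). In WT it was -0.86 ± 0.14 (SE, n = 6, 95% interval -1.16 to -0.56), with an adjusted p of 0.219 in limma. It ranked first of all genes by p in that fit, which includes culture 4, where Fkbp5 and Per1 ran against the labels. In the fit without culture 4, Per1 (adjusted p = 3.35e-06 in limma) and Fkbp5 (0.000127) came ahead of Mycn. Without WT culture 4 the WT effect was -0.92 ± 0.16 (n = 5) and passed with an adjusted p of 0.015 in limma, where 0.169% of all genes passed, and the same cultures without their pairing gave an adjusted p of 1.

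Because Mycn was lower in both genotypes, the mean of the 2 Dex effects was tested as well, a comparison chosen after the data were seen. Mycn fell by 0.60 ± 0.10 log2 units with Dex over both genotypes (SE, 95% interval -0.80 to -0.40, adjusted p = 0.016 in limma), and it was the only 1 of the 10 genes to pass. Without culture 4 the value was -0.63 ± 0.10 (adjusted p = 0.00443 in limma). Of the others Myc and Mxd4 had an unadjusted p at or under 0.05. Over all genes 0.144% passed and 9.1% had such an unadjusted p. The fit ignoring which arrays share a culture gave the same value with an adjusted p of 0.635, and adjusted p rose to 0.05 or just above when WT culture 2 (-0.61), 3 (-0.58), 5 (-0.60) or 6 (-0.56) was left out, with values of 0.05 to 0.0675. The dimness of the signal applies to these values, and the part it plays was not tested.

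Mxd4 moved the other way. Its Dex minus vehicle differences were 0.30, 0.70, 0.82, 0.64, 0.24, 0.69 and 0.62 log2 units in SOX2 KO cultures 7 to 13. They were 0.77, 0.44, 0.57, -0.59, 0.64 and 0.28 in WT cultures 1 to 6. The value below 0 was that of culture 4, the culture whose Fkbp5 and Per1 went against the labels. The Dex effect on Mxd4 was 0.57 ± 0.15 in SOX2 KO (adjusted p = 0.252 in limma) and 0.35 ± 0.16 in WT (adjusted p = 0.998). Without culture 4 these were 0.57 ± 0.12 in SOX2 KO (adjusted p = 0.0563) and 0.54 ± 0.14 in WT (adjusted p = 0.334). Averaged over both genotypes Mxd4 was at 0.46 ± 0.11 with all cultures (adjusted p = 0.143). Without culture 4 it rose by 0.56 ± 0.09 (95% interval 0.36 to 0.75) and passed with an adjusted p of 0.00473 in limma, where 0.497% of all genes passed, and the same cultures without their pairing gave an adjusted p of 0.885.

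Myc was lower with Dex in all 7 SOX2 KO cultures, with differences of -0.32, -0.09, -0.45, -0.62, -0.75, -2.02 and -0.82 log2 units in cultures 7 to 13. In WT its differences were -0.12, -0.03, -0.85, 0.85, -0.94 and -0.79 in cultures 1 to 6, again with culture 4 alone above 0. The far value in SOX2 KO, -2.02, belonged to culture 12. The Dex effect on Myc was -0.72 ± 0.22 in SOX2 KO (95% interval -1.19 to -0.26, adjusted p = 0.335 in limma), and -0.51 without culture 12. In WT it was -0.31 ± 0.24 with all 6 cultures (adjusted p = 0.998) and -0.55 ± 0.23 without culture 4 (adjusted p = 0.974). Averaged over both genotypes Myc was at -0.52 ± 0.16 (adjusted p = 0.31 in limma) and at -0.64 ± 0.15 without culture 4 (adjusted p = 0.0861), and it passed only where culture 4 and culture 12 were both left out (-0.53, adjusted p = 0.0269, where 0.907% of all genes passed).

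The other 7 genes had no Dex effect that passed. In SOX2 KO their effects ran from -0.31 ± 0.19 for Mga to 0.02 ± 0.13 for Mycl, with adjusted p from 0.585 to 0.989 in limma. In WT they ran from -0.06 for Max and Mga to 0.22 ± 0.23 for Mxd1, each with an adjusted p of 0.998. Without culture 4 the WT effects ran from -0.14 ± 0.15 for Max to 0.26 ± 0.26 for Mxd1, again each with an adjusted p of 0.998. With all cultures the intervals were narrowest for Mycl, from -0.25 to 0.28 in SOX2 KO and from -0.28 to 0.29 in WT, and for Max, from -0.42 to 0.12 in SOX2 KO and from -0.36 to 0.23 in WT. Among these 7 genes the differences of Mxd1 were the most scattered between WT cultures, from -0.40 to 1.25. In SOX2 KO those of Mga and Mxi1 reached -1.78 and -1.48 in culture 12, while the other 6 cultures lay between -0.32 and 0.46 for Mga and between -0.34 and 0.31 for Mxi1.

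**Figure D2:**
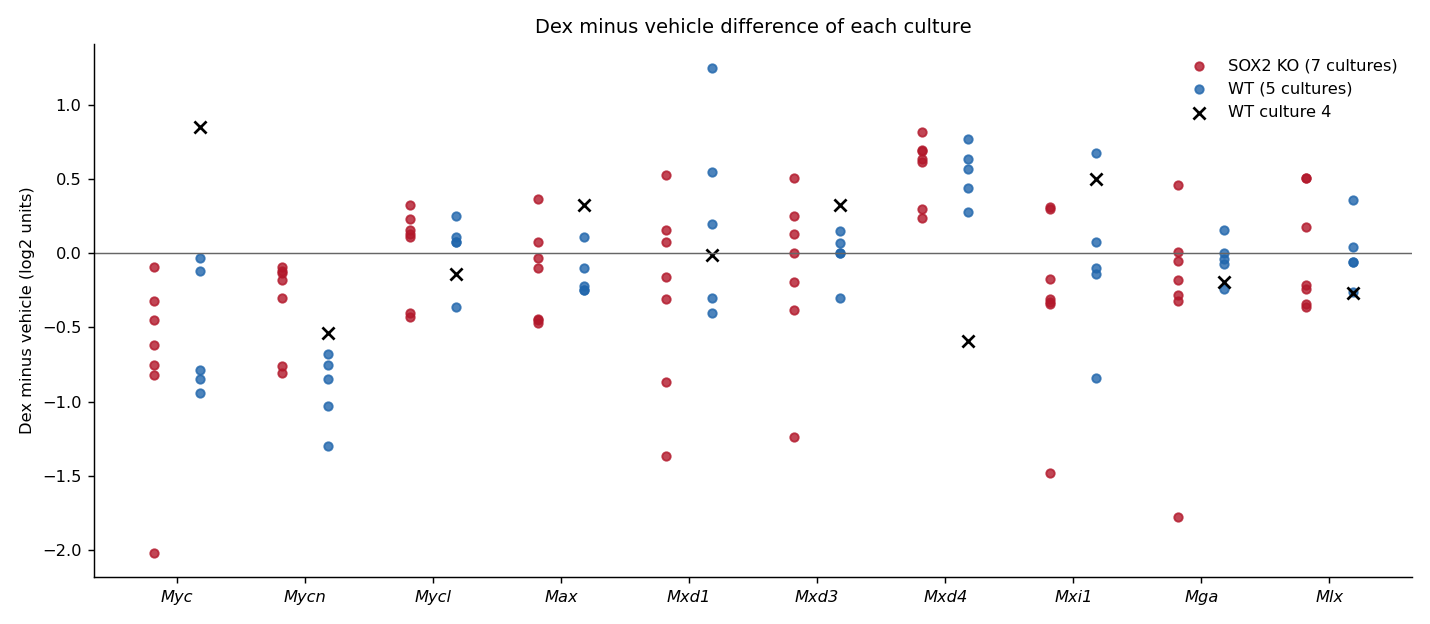
Dex minus vehicle difference in log2 units (y axis) of the 10 genes (x axis) in each of the 13 cultures. Each point is a culture, with SOX2 KO left of WT for each gene and WT culture 4, as labelled, as a cross; all Mycn points lie below 0, and the only Mxd4 point below 0 is culture 4.

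**Figure D3:**
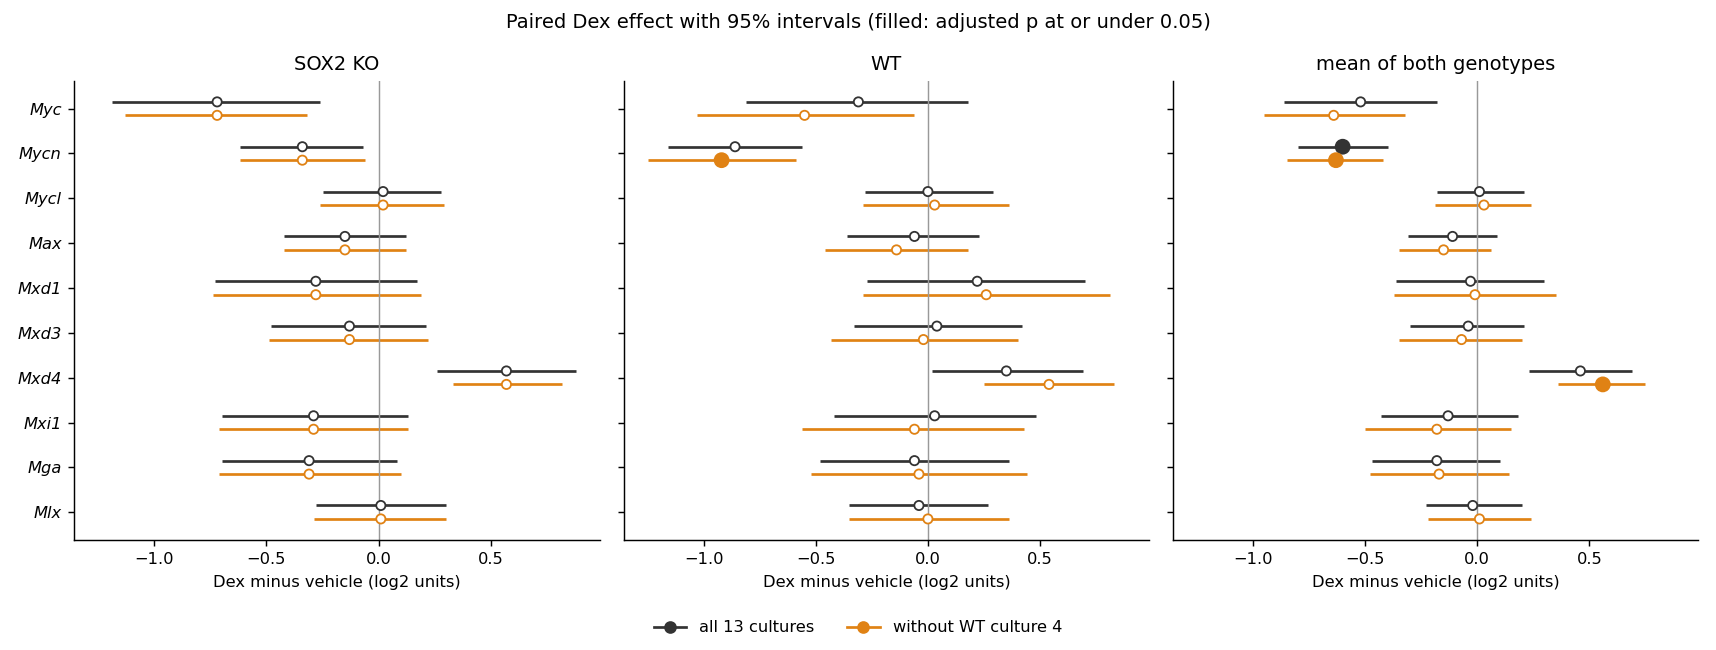
Paired Dex effect in log2 units (x axis) of the 10 genes (rows) in SOX2 KO, in WT and averaged over both, with 95% intervals. Black points use all 13 cultures, orange points leave out WT culture 4, and filled points passed an adjusted p of 0.05: Mycn in WT without culture 4 and in both averaged fits, and Mxd4 in the averaged fit without culture 4.

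The next comparison asks whether Dex acted on these genes to a different extent in SOX2 KO than in WT. None of the 10 genes passed the test of that difference in limma, and 1 of them (Mycn) had an unadjusted p at or under 0.05, where 0% of all genes passed and 3.53% had such an unadjusted p. For Mycn the SOX2 KO effect minus the WT effect was 0.52 ± 0.19 (SE, 95% interval 0.11 to 0.92, adjusted p = 0.999), and 0.58 ± 0.20 without culture 4. Mycn stood between the 4.3 and 12.3 percentiles in SOX2 KO vehicle arrays, and between the 10.4 and 36.3 percentiles in WT vehicle arrays. The part that this low vehicle level in SOX2 KO plays in its smaller Dex effect was not tested. For Mxd4 the difference was 0.22 ± 0.22 (95% interval -0.23 to 0.68) with all cultures and 0.03 ± 0.18 (95% interval -0.35 to 0.42) without culture 4. For Myc it was -0.41 ± 0.32 (95% interval -1.09 to 0.27) with all cultures and -0.18 ± 0.30 (95% interval -0.81 to 0.45) without culture 4. A p above the threshold does not show that the genotypes responded alike. For Mxd1, whose Dex effect was -0.28 ± 0.21 in SOX2 KO and 0.22 ± 0.23 in WT, the difference was -0.49 ± 0.31, and -0.54 ± 0.34 without culture 4.

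The genotype comparison asks which of these genes differed between cells without and with Sox2. Mxd1, the repressor partner of Max, was higher in SOX2 KO than in WT with vehicle and was the only 1 of the 10 genes to pass. In SOX2 KO vehicle arrays it averaged 8.95 ± 0.43 log2 units (SD, n = 7), against 7.70 ± 0.69 in WT vehicle arrays (SD, n = 6). The difference was 1.26 ± 0.30 (SE, 95% interval 0.64 to 1.88, adjusted p = 0.0473 in limma), and over all genes 0.559% passed. Mycn and Mycl were the others with an unadjusted p at or under 0.05, which 5.17% of all genes had. Of the 7 SOX2 KO vehicle arrays 4 lay above all WT vehicle arrays. The overlap came from culture 4, at 8.78. Without it the lowest SOX2 KO array was at 8.40 and the highest WT array at 7.90, and the difference was 1.47 ± 0.28 (adjusted p = 0.00843 in limma, where 0.523% of all genes passed). Adjusted p was close to the threshold, at 0.0524 with a trended and robust prior, and leaving out any culture other than 4 moved it to between 0.0537 (culture 9, value 1.35) and 0.178 (culture 3, value 1.06).

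Within array clusters 1, 2 and 3 the SOX2 KO minus WT difference of Mxd1 with vehicle was 1.46, 0.43 and 1.32, and a fit with the cluster as a covariate gave 1.24 ± 0.27 (adjusted p = 0.00879 in limma). Cluster 2 holds a single WT culture, culture 4. In Dex arrays the Mxd1 difference was 0.76 ± 0.30 (95% interval 0.15 to 1.38, adjusted p = 0.474 in limma), with 0.56, 0.02 and 1.46 within clusters 1, 2 and 3. Without culture 4 this difference in Dex arrays was 0.94 ± 0.28 (adjusted p = 0.197 in limma). None of the 10 genes passed in Dex arrays in limma, and 2 (Mxd1 and Mycl) had an unadjusted p at or under 0.05, where 0.564% of all genes passed and 7.56% had such an unadjusted p. The change of the Mxd1 genotype difference between the treatments is the same quantity as the difference of its Dex effects above, which did not pass.

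Of the Myc genes, Mycn and Mycl had lower means in SOX2 KO than in WT without passing the test. With vehicle Mycn averaged 3.95 ± 0.17 in SOX2 KO and 4.65 ± 0.61 in WT, a difference of -0.70 ± 0.23 (adjusted p = 0.32 in limma), and 5 of 7 SOX2 KO arrays lay below all WT arrays. The WT vehicle arrays enter both this difference and the Dex effect in WT, so the 2 values are not independent. With Dex the Mycn difference was -0.18 ± 0.23 (adjusted p = 0.932). Mycl averaged 5.60 ± 0.39 in SOX2 KO and 6.07 ± 0.30 in WT with Dex, a difference of -0.47 ± 0.21 (adjusted p = 0.566). With vehicle it averaged 5.58 ± 0.36 in SOX2 KO and 6.07 ± 0.30 in WT, a difference of -0.48 ± 0.21 (adjusted p = 0.743). Mycl was lower in SOX2 KO within all 3 array clusters in both treatments, with differences of -0.73 to -0.16, and in each treatment 4 of 7 SOX2 KO arrays lay below all WT arrays. Its signal was also below the median of its own array throughout, between the 18.2 and 47.3 percentiles, and the part this plays was not tested. Myc itself differed by -0.06 ± 0.24 with Dex and by 0.35 ± 0.24 with vehicle, and neither passed. Without culture 4 the differences with Dex were 0.09 ± 0.24 for Myc, -0.15 ± 0.25 for Mycn and -0.52 ± 0.22 for Mycl, and none passed. With vehicle they were then 0.27 ± 0.24 for Myc, -0.73 ± 0.25 for Mycn and -0.50 ± 0.22 for Mycl, and none passed.

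The remaining genes did not pass in either treatment. Mxi1 differed by 0.30 ± 0.31 with Dex and by 0.61 ± 0.31 with vehicle (95% interval -0.02 to 1.25), and Mxd3 by -0.47 ± 0.23 with Dex and by -0.30 ± 0.23 with vehicle. For Max the differences were 0.09 ± 0.26 with Dex and 0.17 ± 0.26 with vehicle. Mga, whose genotype differences had the widest errors of the 10 genes, differed by -0.39 ± 0.41 with Dex and by -0.15 ± 0.41 with vehicle. Mlx differed by 0.20 ± 0.20 with Dex and by 0.15 ± 0.20 with vehicle. Mxd4 differed by 0.36 ± 0.25 with Dex and by 0.14 ± 0.25 with vehicle. With all cultures the intervals of all these genes included 0 in both treatments. Without culture 4 the Mxd3 difference with Dex was -0.51 ± 0.25 (95% interval -1.02 to -0.01, adjusted p = 0.582 in limma), and the other intervals still included 0. The Mga difference with Dex was then -0.63 ± 0.39.

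**Figure D4:**
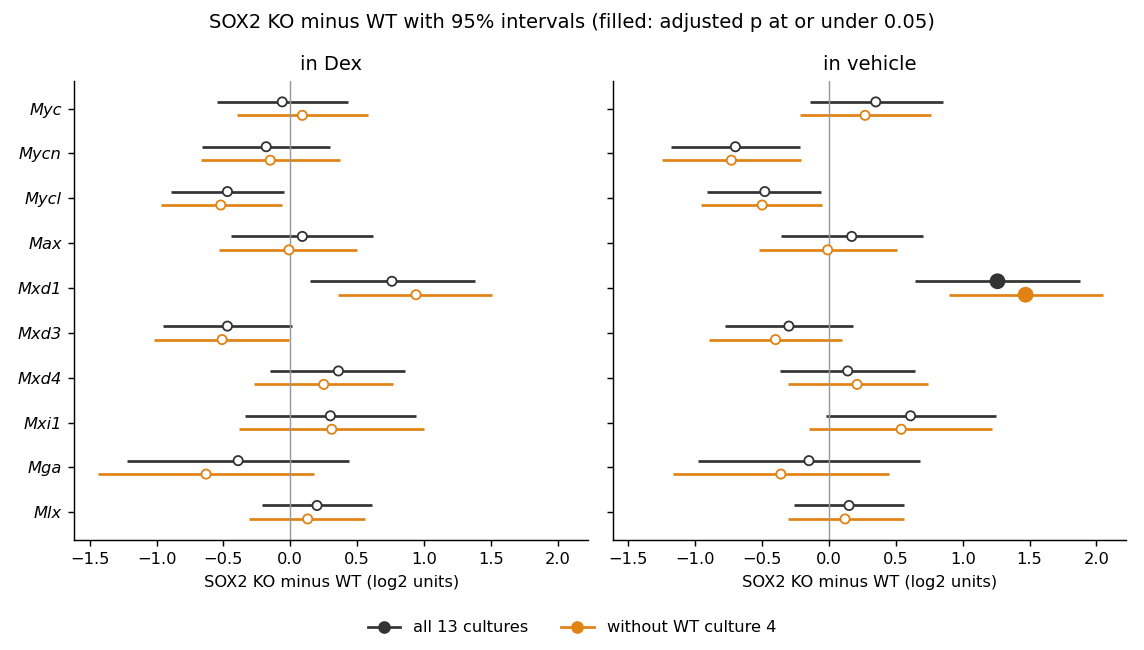
SOX2 KO minus WT difference in log2 units (x axis) of the 10 genes (rows) in Dex and in vehicle arrays, with 95% intervals. Black points use all 13 cultures, orange points leave out WT culture 4, and filled points passed an adjusted p of 0.05, which Mxd1 did with vehicle in both fits.

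The wider network was described through lists of known cofactors and targets. Under Dex, 0 of the 103 measured genes of these lists passed in limma in either genotype. In SOX2 KO 15 of the 103 (14.6%) had an unadjusted p at or under 0.05, against 10.2% of all genes. In WT 1 of the 103 (0.971%) had one, against 3.87% of all genes. Without culture 4, 0 of the 103 passed in WT in limma and 5 (4.85%) had an unadjusted p at or under 0.05, against 4.93% of all genes. Of 23 measured ribosome biogenesis targets of Myc, 19 in SOX2 KO and 17 in WT had an effect below 0. The median effect of these targets was -0.08 in SOX2 KO and -0.06 in WT, beside -0.02 and 0 over all genes. Over the 9752 genes left by a filter that drops low means, the medians were -0.08 in SOX2 KO and -0.02 in WT. The share of all genes below 0 was not counted. Of 19 metabolism and growth targets, which include the polyamine enzymes Odc1 and Srm, 15 in SOX2 KO and 16 in WT were below 0, with medians of -0.17 in SOX2 KO and -0.09 in WT. Of 17 cofactors and stability factors of Myc 15 were below 0 in SOX2 KO (median -0.14) and 10 in WT (median -0.02). Of 10 genes that Myc is known to repress 7 in SOX2 KO and 8 in WT were above 0, with medians of 0.06 in SOX2 KO and 0.17 in WT. The cell cycle targets had 9 of 11 below 0 in SOX2 KO and 5 of 11 in WT, with medians of -0.18 in SOX2 KO and 0.07 in WT. The 4 Mlx and Mondo targets, among them the glucose-response gene Txnip, had 3 below 0 in SOX2 KO and 4 in WT. Without culture 4 the WT counts below 0 were 20 of 23 ribosome biogenesis targets (median -0.10), 16 of 19 metabolism and growth targets (median -0.08), 9 of 17 cofactors (median -0.03), 5 of 11 cell cycle targets (median 0.06) and 3 of 4 Mlx and Mondo targets. Of the genes that Myc represses 8 of 10 were then above 0 (median 0.17). The corepressors of Mxd and Mnt (5 measured) and the other network factors Mnt, Mlxip, Mlxipl and Zbtb17 were split in SOX2 KO, with medians of -0.03 and -0.02. Beside these, 9 of 10 neural stem and progenitor markers were below 0 with Dex in SOX2 KO (median -0.35). In WT 7 of 10 were below 0 (median -0.11), and 8 of 10 without culture 4 (median -0.16). The part of these markers in the values above was not tested.

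**Figure D5:**
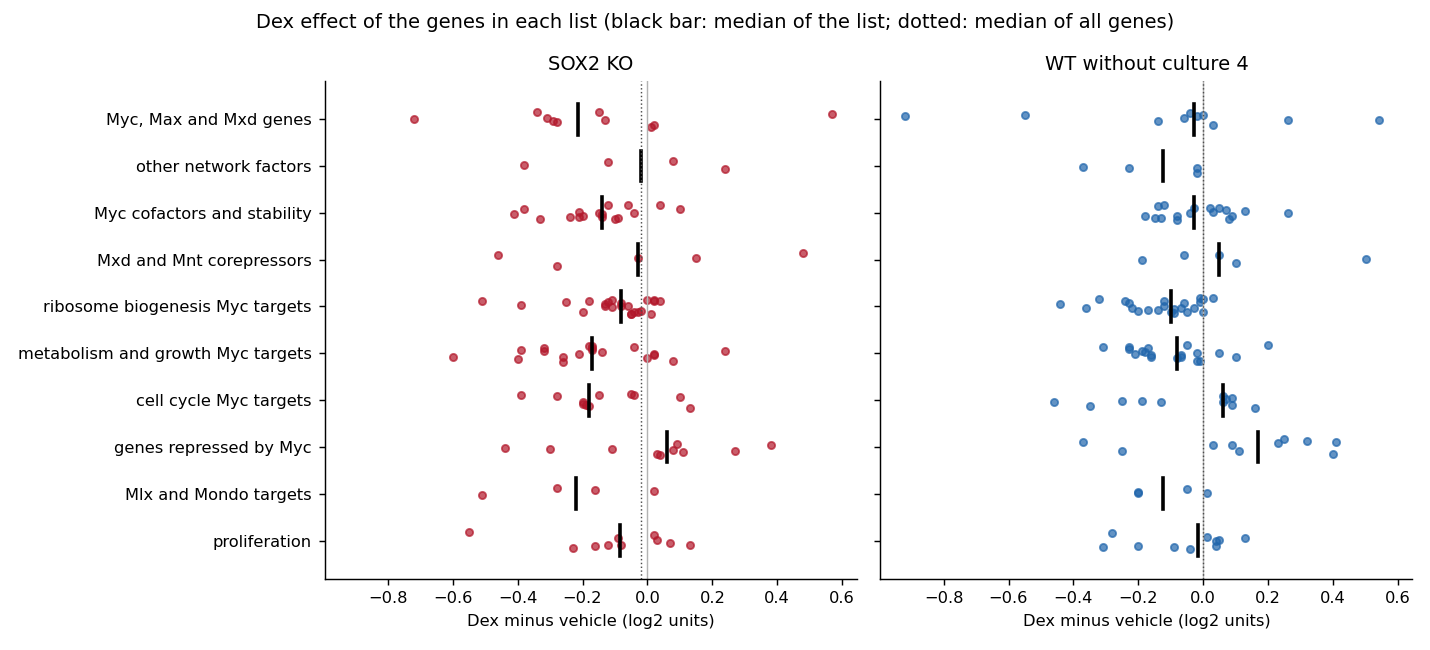
Dex minus vehicle effect in log2 units (x axis) of every measured gene of each list (rows), in SOX2 KO and in WT without culture 4. Black bars are list medians and the dotted line is the median of all genes, dim ones included. The ribosome biogenesis targets have medians of -0.08 in SOX2 KO and -0.10 in WT without culture 4. With low means filtered out, the median of the genes left is -0.08 in SOX2 KO.

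Between genotypes, 1 of the 103 genes of these lists passed with Dex (0.971%, against 0.564% of all genes) and 2 of the 103 with vehicle (1.94%, against 0.559%). Without culture 4 these counts were 1 with Dex and 0 with vehicle in limma, where 8 of the 103 (7.77%) had an unadjusted p at or under 0.05 with vehicle, against 6.27% of all genes. Gadd45b, a growth arrest gene that Myc represses, was the 1 of 10 in its list to pass in each treatment. With Dex it averaged 7.81 ± 0.36 in SOX2 KO and 6.78 ± 0.47 in WT, a difference of 1.03 ± 0.22 (adjusted p = 0.0148 in limma). With vehicle it averaged 7.53 ± 0.27 in SOX2 KO and 6.57 ± 0.37 in WT, a difference of 0.96 ± 0.22 (adjusted p = 0.0251). Without culture 4 the Gadd45b difference kept its call with Dex (1.03, adjusted p = 0.0268) and lost it with vehicle (0.87, adjusted p = 0.0962). E2f2, a cell cycle transcription factor and Myc target, was the 1 of 11 cell cycle targets to pass with vehicle. It averaged 7.83 ± 0.51 in SOX2 KO and 9.21 ± 0.37 in WT vehicle arrays, which did not overlap, a difference of -1.38 ± 0.33 (adjusted p = 0.0419 in limma). Without culture 4 the E2f2 difference with vehicle was -1.25 with an adjusted p of 0.129. With Dex and all cultures it was -1.13 ± 0.33 (adjusted p = 0.14).

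Counts of direction follow for the larger lists. Genes of a list can move together, so these signs are not independent, and the share of all genes below 0 was not counted. Of the cell cycle targets 9 of 11 had a SOX2 KO minus WT difference below 0 with Dex (median -0.35) and 7 of 11 with vehicle (median -0.23). The medians over all genes were -0.06 with Dex and -0.03 with vehicle. Over the 9752 genes left by the filter on low means they were -0.12 with Dex and -0.06 with vehicle. With Dex 5 of the 11 had an unadjusted p at or under 0.05, all of them lower in SOX2 KO, where 7.56% of all genes had such a p in either direction. With vehicle 2 of the 11 had one, against 5.17% of all genes. Without culture 4 the counts were 4 with Dex and 3 with vehicle, against 1634 and 1223 of 19505 genes. Without culture 4 the cell cycle targets had 9 of 11 below 0 with Dex (median -0.42) and 8 of 11 with vehicle (median -0.29).

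All 10 measured proliferation genes, such as Mki67 and Top2a, had a difference below 0 in both treatments, with medians of -0.24 with Dex and -0.23 with vehicle. None of them passed in limma. In each treatment 2 of the 10 had an unadjusted p at or under 0.05, against 7.56% of all genes with Dex and 5.17% with vehicle, and without culture 4 the count was 1 in each. Of the metabolism and growth targets 17 of 19 were below 0 with Dex (median -0.20) and 11 of 19 with vehicle (median -0.03). Of the ribosome biogenesis targets 14 of 23 were above 0 with Dex (median 0.03) and 19 of 23 with vehicle (median 0.07), whereas 12 of 23 with Dex and 11 of 23 with vehicle were above 0 without culture 4. Of the genes that Myc represses 7 of 10 were above 0 in each treatment, with medians of 0.12 with Dex and 0.32 with vehicle. Without culture 4 these were 5 of 10 with Dex and 6 of 10 with vehicle. Of the cofactors 12 of 17 were below 0 with Dex (median -0.11) and 8 of 17 with vehicle (median 0.02).

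The genes whose Dex response ran most like that of Myc and of Mycn were taken as the 5 with the highest Pearson correlation of the Dex minus vehicle difference over the 12 cultures other than culture 4, leaving out predicted loci. For Myc these were Fam120a (0.94), Usp4 (0.93), Desi1 (0.93), the spermidine synthase gene Srm (0.92) and Kat2a (0.92), which encodes a histone acetyltransferase. Srm and Kat2a are also in the lists of Myc targets and of Myc cofactors. Without culture 12, where Myc had its far value, the 5 correlations with Myc were 0.78 to 0.85. For Mycn the genes were Six3os1 (0.92), Mccc2 (0.90), Slc22a15 (0.87), Tbkbp1 (0.87) and Pcyt1a (0.86), and without culture 12 they correlated at 0.87 to 0.93. The 12 points share 2 genotypes and 3 array clusters, and the genes were picked from all 19505 for this likeness, so the values are descriptions.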

How the data were processed

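The labels give 26 one-colour arrays of biotin-labelled cRNA, and the analysis started from the table of values that the authors deposited. These deposited values were taken as log2 expression from their range (2.22 to 19.81). Their log base and how the authors normalized them are not given in the sources used here. Array medians ran from 6.44 to 6.835. Of 22206 rows 19572 carried 1 gene symbol and 2634 none, and with the row of highest mean for 55 genes this left 19505 genes. For arrays, their number limits the precision.

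Tests used limma 3.58.1 in R 4.3.3 on all 26 arrays, with Benjamini-Hochberg adjustment over all genes and a threshold of 0.05. Dex effects were fitted with the culture as a fixed block and a Dex term for each genotype, and SOX2 KO was compared with WT in a fit of 4 group means. The pairing comes from the labels, which number the cultures and say that cells of each animal were kept apart. After removing group means, the 2 arrays of a culture correlated at 0.31 to 0.73, and 22 of 26 were best matched by their own number. The 10 genes were named in every comparison. From the lists up to 4 genes that passed were named, and for Myc and Mycn the 5 genes most like each. Members and lists were chosen with earlier results of these data known. The averaged Dex effect, leaving out cultures 4 and 12 together, and leaving out culture 4 with no block or with the array cluster were chosen after the data were seen. Settings also tried were median centring, quantile normalization, a filter that drops low means, a trended and robust prior, the mean of a gene's rows, a minimum fold change of 1.5, the 2 groups compared alone, a random culture block, the array cluster (from the profiles) as a covariate and leaving out each culture. The fits were also run on simulated data, with normal noise drawn for each gene separately and a part of it shared within a culture. These data held no array clusters, no outlying array and no culture against its labels, so the recovered shares cover such data only. On simulated data with 19505 genes the fits recovered 79% of changes of 1 log2 unit for Dex in WT, 87% for Dex in SOX2 KO, 45% for the difference of the Dex effects, 53% for SOX2 KO against WT with Dex and 56% with vehicle. With 200 genes changed, false calls were 4 of 181 calls, 16 of 202, 4 of 144, 14 of 165 and 12 of 164 in the same order, so above 5% of calls for Dex in SOX2 KO and for both genotype comparisons.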

Additional observations from a re-analysis of the deposited data

Results flagged for a closer look

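Of 60 sets of values tested (levels and Dex minus vehicle differences of the 10 genes in each group), 7 held a value far from the others, where chance would give about 1 in 20 sets. In 5 of the 7 that value belonged to SOX2 KO culture 12, as a level of its Dex array or as a Dex minus vehicle difference. A level and a difference of the same gene share that Dex array, so these sets are not independent. The same Dex array had the lowest upper quartile of all arrays. Its level was 8.45 for Mxi1, against a nearest value of 9.91, and 9.44 for Mga, against 11.43. The Dex minus vehicle difference of culture 12 was -2.02 for Myc, against a nearest value of -0.82, -1.48 for Mxi1, against -0.34, and -1.78 for Mga, against -0.32. In WT the Mxd4 difference of culture 4 was -0.59, where the nearest other culture was at 0.28. The Mxi1 level of SOX2 KO culture 7 with vehicle was 11.01, where the nearest other array was at 10.33.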

How the results depend on the processing

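The count of the 10 genes that passed was 0 under every alternative tried for Dex in SOX2 KO, for the difference of the Dex effects and for SOX2 KO against WT in Dex. For Dex in WT the count was 1 without cultures 4 and 12, and 0 to 1 over fits that each left out 1 culture. For SOX2 KO against WT in vehicle it was 0 with a trended and robust prior and 0 to 1 leaving out 1 culture. For the averaged Dex effect it was 0 with no replicate block, 0 with no replicate block and without culture 4, 0 with the filter on low means, which drops Mycn from the genes tested, and 3 without cultures 4 and 12, and 0 to 2 leaving out 1 culture. The random culture block changed no call of the genotype comparisons. Leaving the culture block out of the Dex fits of all cultures changed no count in single genotypes, but without culture 4 the count for Dex in WT was 0 with no block and 1 with it.

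Small values without a call changed sign, and the cause was not tested. In WT with Dex, without cultures 4 and 12 and with no replicate block without culture 4, Mxd3 was -0.02 and Mxi1 -0.06 in both fits. Mycl with Dex in SOX2 KO was -0.01 after quantile normalization. For the difference of the Dex effects, Myc was 0.04 and Max 0.05 without cultures 4 and 12, and Mycl was -0.01 with no replicate block and without culture 4. For SOX2 KO against WT, Mga with vehicle was 0.09 with the cluster as a covariate and 0.17 with the cluster and without culture 4, and Myc with Dex was 0.07 after quantile normalization, 0.02 after median centring and 0.23 without cultures 4 and 12. Leaving out 1 culture, ranges that crossed 0 were, with Dex in SOX2 KO, -0.08 to 0.07 (Mlx), -0.24 to 0.05 (Mxd3) and -0.03 to 0.09 (Mycl); with Dex in WT, -0.02 to 0.11 (Mxd3), -0.10 to 0.20 (Mxi1) and -0.05 to 0.08 (Mycl); for the difference, -0.04 to 0.13 (Mlx), -0.28 to 0.01 (Mxd3) and -0.06 to 0.09 (Mycl), while Myc (-0.54 to -0.18) and Max (-0.17 to -0.01) kept their sign. For SOX2 KO against WT they were, in Dex, -0.02 to 0.23 (Max), -0.63 to 0.01 (Mga), -0.15 to 0.09 (Myc) and -0.29 to 0.01 (Mycn), and in vehicle, -0.01 to 0.29 (Max) and -0.36 to 0.01 (Mga).

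Over all genes, SOX2 KO against WT called 110 genes in Dex and 109 in vehicle, against 397 and 376 with the cluster as a covariate and 171 and 169 after quantile normalization. Of the calls in Dex 36 were higher, against 187 with the cluster, 77 after quantile normalization and 67 of 152 after median centring. Of the calls in vehicle 37 were higher, against 188 and 71. In Dex, 72 passed with the arrays of the 2 groups alone, 69 without culture 1 and 71 without culture 13. Dex in SOX2 KO called 14, against 24 with the filter, 49 without culture 4, 3 without culture 13, 8 without culture 8 and 9 without culture 7 or 11. Dex in WT called 0, against 33 without culture 4, and the averaged effect 28, against 44 with the filter, 46 with the trended prior, 15 with no replicate block and 97 without culture 4. Without any 1 of the other cultures except 12 (30) the averaged effect called 5 (culture 6) to 14 (culture 11). The dim signal limits the values of Mycn, and the signal of Mycl was also below its array medians.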
